A study of Mus musculus with 12 samples.

Results

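The genes described here are 9 genes of B lymphocytes and their antibody receptor: Ighm, Cd79a, Cd79b, Blk, Cd22, Ms4a1, Pax5, Pou2af1 and Ly86. They were chosen by name, as the probe sets whose annotated gene symbol was one of these, and are 9 of the 18193 genes with a probe set of their own on the array. Together they had 22 probe sets naming 1 gene alone, and another 4 named Ighm together with other immunoglobulin genes. Of the 22, Ighm had 11, Ms4a1, Cd22 and Pax5 had 2 each, and the other genes had 1 each. By its title, the series set methods of amplifying very small amounts of total RNA side by side on microarrays. Kidney RNA of the mouse, bought from Ambion, went in at 10 ng. The other RNA, Universal Mouse Reference from the supplier the labels write as Strategene, is a product pooled from cell lines and went in at 10, 3 and 0.3 ng. Each of these 4 groups had 3 arrays. The title code pRS, shared by all groups, is not explained in the labels, which give no strain, age or genotype and do not say whether replicates were separate animals, extractions or amplifications. The p-values therefore measure only the spread between these arrays.

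The deposited signals are linear intensities, scaled so that the 2% trimmed mean of every array is 500. A signal under 33.65, which 95% of the signals of 27 Bacillus controls do not exceed, is called below background here, and 33.2% to 42.4% of the probe sets of an array lay below it. The median SD of log2 signals among the 3 arrays of a group was 0.26 in kidney, 0.24, 0.31 and 0.69 in the reference at 10, 3 and 0.3 ng. The ratio of 3′ to 5′ actin control signals was 5.25 to 5.50 on the kidney arrays and 3.47 to 3.96 on the reference arrays, and its part in the differences below was not tested. As a check of the tissue label, all 12 kidney tubule markers examined, among them Umod and Lrp2, were higher in kidney than in the reference at 10 ng.

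B lymphocytes carry a membrane antibody, in naive cells IgM, whose heavy chain is encoded by Ighm. The antibody has almost no cytoplasmic tail and signals through the paired chains Ig-alpha and Ig-beta, encoded by Cd79a and Cd79b, which are phosphorylated by Src family kinases such as Blk and restrained by the sialic acid-binding coreceptor Cd22. Pax5 fixes the B lineage identity, Pou2af1 encodes a coactivator that binds octamer transcription factors on immunoglobulin promoters, Ms4a1 encodes CD20, and Ly86 encodes MD-1, the secreted partner of the receptor RP105. When a B cell becomes a plasma cell it shuts off Pax5 and much of its surface receptor while keeping Pou2af1 and making large amounts of antibody chains and J chain.

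At 10 ng the members differed between kidney and reference RNA in both directions. Ighm and Ly86 were higher in kidney, while Ms4a1, Pou2af1, Cd79b and Cd79a were lower. Cd22, Blk and Pax5 did not pass the filter on low signals, so 6 of the 9 members were tested. The 2 groups of arrays did not overlap for any of the 6, as for 73.2% of 12820 tested genes. In limma's test with Benjamini-Hochberg adjustment over 27022 probe sets, 2 of the 6 were called higher in kidney, against 27.1% of tested genes, and 4 were called lower, against 35.6%. The median log2 fold change of the 6 was -2.10 (-1.77 with signals under background raised to it), beside -0.19 over all tested genes. Since 62.7% of all tested genes were called in one direction or the other, the number of calls is not particular to these genes. Centring each array on its median moved the median over all probe sets from -0.34 to -0.09 and the calls over all probe sets from 6201 higher and 10045 lower to 7540 higher and 7805 lower, and the 6 members kept their direction and call. The RNA comes from whole tissue or pooled cells, so fewer B cells and less RNA per cell cannot be told apart.

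**Figure D1:**
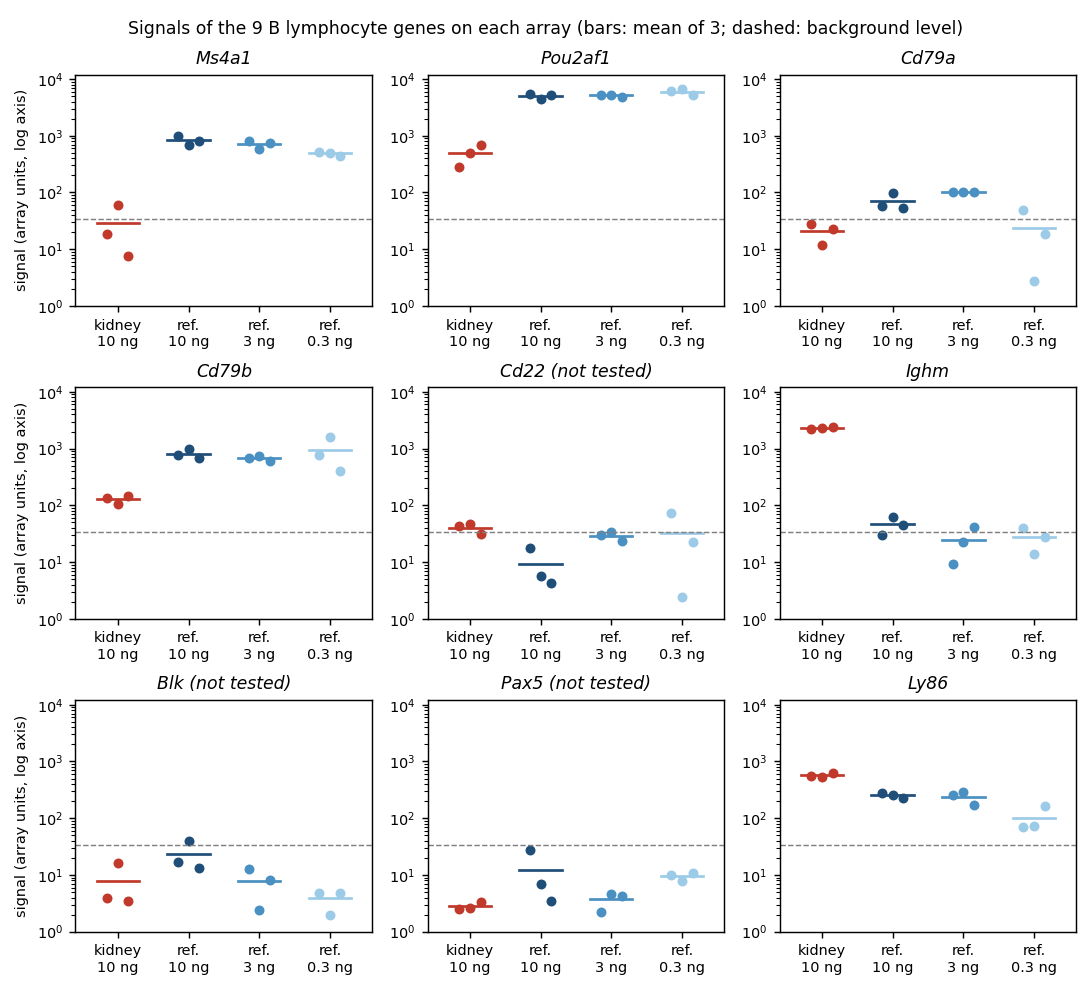
Signal of each member's representative probe set on each of the 12 arrays (points, log axis, array units) with the mean of each group of 3 (bars) and the background level of 33.65 (dashed). Ighm stands at 2229 to 2388 in kidney and at 62.5 or less in every reference array, whereas Pou2af1, Ms4a1 and Cd79b stand above kidney on every reference array; Blk and Pax5 lie near or below background in all groups.

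Ighm (gene ID 16019, chromosome 12, 113418826 to 113422730 on GRCm38.p6, annotated as a C region, the constant part of the heavy chain) measured 2229, 2310 and 2388 on the kidney arrays. In the reference its representative probe set measured 30.6, 62.5 and 45.5 at 10 ng, 9.3, 22.8 and 42.2 at 3 ng and 40.1, 14.1 and 27.9 at 0.3 ng. Every kidney array lay far above every reference array, and the reference signals scattered around background at each input. The log2 fold change of kidney against the reference at 10 ng was 5.58 ± 0.25 (SE, n = 3 arrays per group), a 47.8-fold difference on the log2(signal + 3.9) scale, with an adjusted p of 3.71e-05 in limma's test.

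The other Ighm probe sets showed how far this rests on 1 probe set. Of the 11 that name Ighm alone, 9 passed the filter. Limma called 8 of them higher in kidney, beside 22.9% of all tested probe sets. Against the reference at 3 ng and 0.3 ng it was again 8 of 9, where 21.8% and 18.1% of all probe sets were called higher. All 9 passed the filter through kidney alone, since every reference mean was under the filter level of 65.4. A lower call was thus not possible, and these counts cannot be weighed against the shares. Of the 8, 6 were bright in kidney, with group means of 995 for 1427870_x_at, 1162 for 1425324_x_at, 1371 for 1427756_x_at, 2039 for 1427869_at, 2309 for 1425385_a_at and 2459 for 1425247_a_at. The remaining pair of called probe sets, 1427351_s_at and 1452535_at, measured only 161 ± 41.7 and 157 ± 15.4 in kidney (SD, n = 3). Probe sets that name the same gene thus ran from 157 to 2459 in kidney among those called, and their levels are not comparable with each other because each has its own probes.

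The probe set 1427869_at measured 2060, 2007 and 2049 in kidney and 5.0, 4.2 and 2.9 in the reference at 10 ng. All 9 reference arrays lay below background on this probe set, the highest at 24.9, so kidney was at least 60.6-fold higher (mean of log2 kidney signals over the background level). For 1425247_a_at kidney was at least 73.0-fold, for 1427756_x_at at least 40.7-fold and for 1427870_x_at at least 29.3-fold higher than the reference at 10 ng. The probe set that was tested but not called, 1427329_a_at, measured 82.7, 70.8 and 52.4 in kidney against 7.1, 47.8 and 29.2 (log2 fold change 1.42, limma adjusted p = 0.0786). The untested 1426196_at and 1451949_at had group means between 12.2 and 38.6 in all groups. The 4 probe sets naming Ighm with other heavy chain genes were dim as well, with kidney means of 26.1 to 65.3. The files do not give the probe sequences, and probe sets whose names end in _x_at or _s_at are marked by the maker as open to cross-hybridisation, so a signal on them may come from a related heavy chain.

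**Figure D2:**
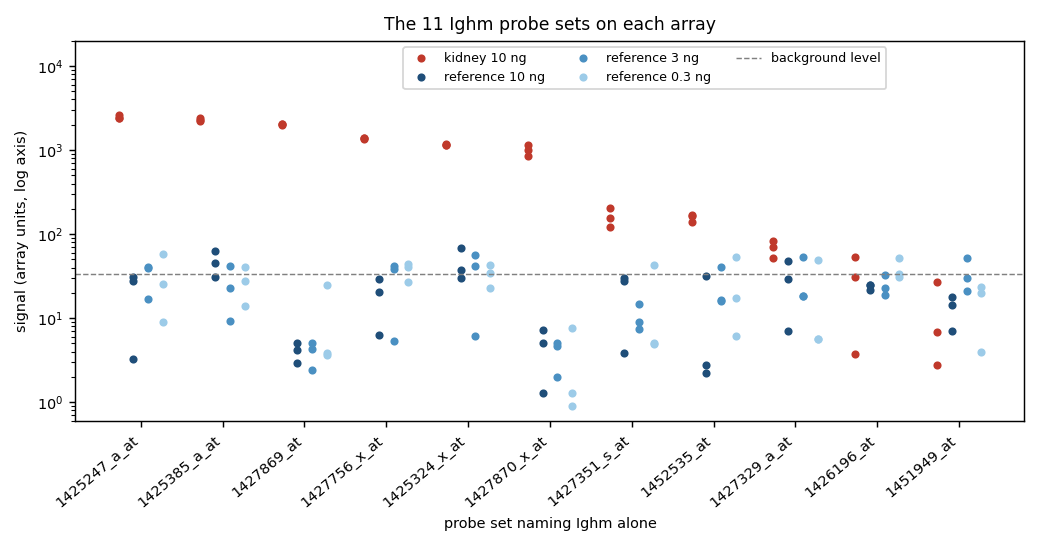
Signal on each array (points, log axis, array units) for the 11 probe sets that name Ighm alone, ordered by kidney mean, with the background level of 33.65 dashed. Kidney points stand above all reference points for 9 of the 11 at equal input, and the reference points at 10 ng lie at 69.1 or less on all 11.

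Cd79b, which encodes Ig-beta, ran opposite to the heavy chain it signals for. It measured 137, 104 and 145 in kidney and 766, 971 and 692 in the reference at 10 ng. At 3 ng the reference arrays measured 690.2, 729 and 595 and at 0.3 ng 773, 1622 and 401 (400.5 before rounding). Kidney lay above background yet below every reference array, and the reference arrays at 0.3 ng differed among themselves by 4.05-fold. The log2 fold change against the reference at 10 ng was -2.61 ± 0.20 (SE, n = 3), 6.12-fold lower in kidney, with a limma adjusted p of 0.000202.

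Cd79a, which encodes the partner chain Ig-alpha, was dim everywhere. It measured 27.5, 12 and 22.4 in kidney, all below background, and 58.1, 99.2 and 52.8 in the reference at 10 ng. The reference arrays at 3 ng were tightly grouped at 102, 103 and 100.1, and those at 0.3 ng spread over 49.4, 2.7 and 18.2. Kidney was thus lower than the reference at 10 ng without overlap, by at least 2.0-fold (log2 fold change -1.60, -0.92 with signals under background raised to it; limma adjusted p = 0.00997), but overlapped the reference at 0.3 ng. The call at 10 ng was lost when the 12 arrays were fitted jointly (limma adjusted p = 0.0614).

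Ms4a1, the CD20 gene (chromosome 19, 11249679 to 11266149), was near background in kidney at 18.7, 59.4 and 7.5. In the reference it measured 999, 684 and 800.0 at 10 ng, 795, 592 and 744 at 3 ng and 525, 502 and 437 at 0.3 ng. Only kidney replicate 2 rose above background, and no kidney array came near a reference array. The log2 fold change against the reference at 10 ng was -5.02 ± 0.62 (SE, n = 3; -4.20 with signals under background raised to it, or 18.4-fold; limma adjusted p = 0.00116). The further Ms4a1 probe set, 1423226_at, gave the same direction with a smaller size, 62.6, 28.7 and 30.0 in kidney against 407, 275 and 345 (log2 fold change -3.03, adjusted p = 0.000693).

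Pou2af1, the octamer coactivator gene (chromosome 9, 51213690 to 51240079), had strong signals in the reference at every input. It measured 5493, 4412 and 5212 at 10 ng, 5311, 5250 (5249.9 before rounding) and 4908 at 3 ng and 6053, 6598 and 5290 (5289.5 before rounding) at 0.3 ng. In kidney it measured 286, 501 and 696, well above background but below every reference array, with the widest kidney spread (2.43-fold from lowest to highest) among the members with all kidney arrays above background. The log2 fold change against the reference at 10 ng was -3.42 ± 0.34 (SE, n = 3), 10.7-fold lower in kidney, with a limma adjusted p of 0.000487.

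Ly86, the MD-1 gene (chromosome 13, 37345345 to 37419036), was the other member that was higher in kidney, by a smaller factor. It measured 545, 537 and 628 in kidney and 275, 253 and 229 in the reference at 10 ng. The signals were 262, 292 and 169 at 3 ng and 71.0, 73.2 and 164 at 0.3 ng. No kidney array overlapped a reference array, and the lowest reference signals were those at 0.3 ng. The log2 fold change against the reference at 10 ng was 1.16 ± 0.14 (SE, n = 3), or 2.24-fold, with a limma adjusted p of 0.00103. Ly86 is also expressed by macrophages and dendritic cells. Of 15 macrophage markers, 14 were tested and 8 were higher and 4 lower in kidney (27.1% and 35.6% of all tested genes). C1qb (7.57), C1qc (6.26) and C1qa (4.87) were higher. Clec4d (-3.99) and, named after its value was seen, Cd68 (-3.26) were lower. The summed signal of the 15 markers was 16725 to 18986 per kidney array and 10945 to 11885 per reference array at 10 ng. Without C1qb, a choice made after seeing the data, the sums were 9816 to 11365 and 10918 to 11834, so the higher kidney sum rests on that gene. Their part in the Ly86 result was not tested.

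Blk, Cd22 and Pax5 had signals near or below background and were left out by the filter. Blk, the Src family kinase gene, measured 3.9, 16.4 and 3.5 in kidney and at most 39.2 on any reference array. Pax5, the B lineage regulator, measured 2.5, 2.6 and 3.4 in kidney and 27.0, 6.9 and 3.5 in the reference at 10 ng, and its further probe set stayed at 19.0 or less on all 12 arrays. Cd22, the inhibitory coreceptor gene, measured 43.2, 47.2 and 31.3 in kidney against 17.7, 5.7 and 4.2 in the reference at 10 ng, at least 1.19-fold higher. With no filter on low signals, Cd22 was called higher in kidney (log2 fold change 1.89, limma adjusted p = 0.0194), while Blk (adjusted p = 0.136) and Pax5 (0.216) were not called. Its reference arrays at 0.3 ng spread from 2.4 to 72.7, and its further probe set stayed at 20.1 or less. On the 9 reference arrays Pax5 was below background throughout and Blk on all but 1, and a low signal does not show absence of the transcript.

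Promoters are shown for the 3 tested members with an entry in the RefSeq promoter table (GRCm38.p6), 2 that were lower in kidney and 1 that was higher. Each runs from 250 bases before to 50 after the gene's start, 5′ to 3′ on the gene's strand. Capitals mark exact matches, on either strand, to the octamer ATGCAAAT or its core TGCAAAT (which lies inside the octamer), the Ets core GGAAGT, the cyclic AMP response core TGACGT, the TATA box TATAAA and the EBF palindrome, motifs that were picked after the sequences were seen.
Pou2af1, chr9:51213440-51213739, plus strand: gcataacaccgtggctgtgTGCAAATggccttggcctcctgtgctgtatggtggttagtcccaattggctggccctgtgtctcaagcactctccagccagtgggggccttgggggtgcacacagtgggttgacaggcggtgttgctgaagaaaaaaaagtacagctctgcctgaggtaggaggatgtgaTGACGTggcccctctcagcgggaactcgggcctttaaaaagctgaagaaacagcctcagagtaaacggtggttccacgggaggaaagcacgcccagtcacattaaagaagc
Cd79a, chr7:24897247-24897546, plus strand: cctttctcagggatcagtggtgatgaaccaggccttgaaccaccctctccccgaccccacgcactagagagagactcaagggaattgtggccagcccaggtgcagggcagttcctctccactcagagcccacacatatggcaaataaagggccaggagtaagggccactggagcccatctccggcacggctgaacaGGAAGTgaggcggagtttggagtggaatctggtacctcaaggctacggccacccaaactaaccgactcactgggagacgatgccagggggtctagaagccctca
Ly86, chr13:37345095-37345394, plus strand: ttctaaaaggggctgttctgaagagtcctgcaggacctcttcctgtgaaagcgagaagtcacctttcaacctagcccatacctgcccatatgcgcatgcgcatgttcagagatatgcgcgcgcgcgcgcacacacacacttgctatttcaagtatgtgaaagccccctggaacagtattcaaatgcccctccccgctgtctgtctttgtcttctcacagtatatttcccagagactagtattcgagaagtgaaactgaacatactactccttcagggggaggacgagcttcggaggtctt
The Pou2af1 window held the octamer core 231 bases before the start and the cyclic AMP response core 61 bases before it. The Cd79a window held the Ets core 54 bases before the start, and the Ly86 window held none of these letters. Of 32544 promoter windows of the same length, 4.04% held the octamer core, 1.75% the full octamer, 7.55% the cyclic AMP response core, 23.7% the Ets core, 13.6% the TATA box and 0.913% the EBF palindrome. Of the members that were not tested, the window of Pax5 held no match. The window of Cd22 held the EBF palindrome 49 bases before the start. A match is a run of letters and says nothing here about binding.

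The same members were then set against the reference at lower input, where tissue and input change together and the kidney arrays are shared. Against 3 ng, limma called 2 of the 6 tested members higher and 4 lower in kidney (26.4% and 31.4% of all tested genes). The log2 fold changes were 6.51 for Ighm and 1.26 for Ly86, -4.80 for Ms4a1, -3.46 for Pou2af1, -2.35 for Cd79b and -2.16 for Cd79a. Against 0.3 ng, 2 were called higher and 3 lower (20.9% and 16.7% of all tested genes), with 6.30 for Ighm, 2.53 for Ly86, -4.27 for Ms4a1, -3.67 for Pou2af1 and -2.60 for Cd79b. The Cd79b call at 0.3 ng (adjusted p = 0.0151) was lost without any 1 of the kidney arrays (adjusted p between 0.0505 and 0.0604). Cd79a was the member not called, with means of 20.6 in kidney and 23.4 in the reference at 0.3 ng (log2 fold change 0.25, 95% interval -1.71 to 2.21).

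**Figure D3:**
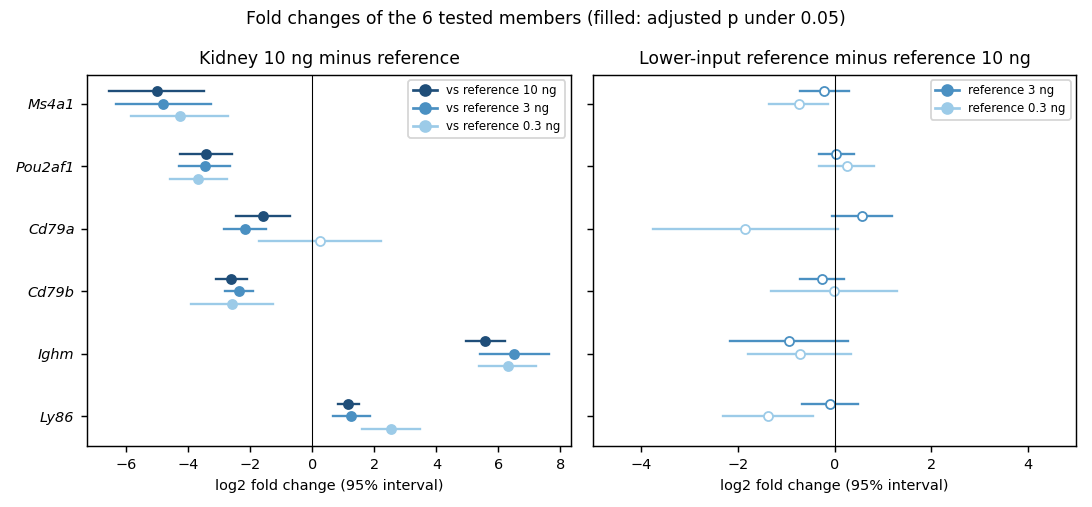
Log2 fold changes (points) with 95% intervals (lines) from limma for the 6 tested members, kidney minus the reference at each input (left) and the reference at lower input minus the reference at 10 ng (right); filled points have an adjusted p under 0.05. Left of zero in kidney stand Ms4a1, Pou2af1 and Cd79b at every input, and no point on the right is filled.

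Within the reference RNA, which was the same at all inputs, no member was called between inputs. At 3 against 10 ng limma called 0 of the 6 tested members and 0 of 27022 probe sets (0.0% of tested genes), and at an unadjusted p under 0.05 the counts were 0 and 2736. The 95% intervals still allowed sizeable shifts, from -0.32 to 0.40 for Pou2af1, -0.72 to 0.29 for Ms4a1, -0.71 to 0.19 for Cd79b, -0.68 to 0.48 for Ly86, -0.05 to 1.18 for Cd79a and -2.15 to 0.29 for Ighm on the log2 scale. At 0.3 against 10 ng limma again called 0 of the 6, where 0.554% of tested genes were called. At an unadjusted p under 0.05, 2 of the 6 members and 4175 of 27022 probe sets passed, both members lower at 0.3 ng.

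These were Ly86, with a log2 fold change of -1.37 (95% interval -2.30 to -0.44, adjusted p = 0.183), and Ms4a1, with -0.75 (-1.36 to -0.13, adjusted p = 0.248). The 3 arrays at 0.3 ng did not overlap the 3 at 10 ng in either gene, as in 25.2% of tested genes. Leaving out replicate 3 of the 0.3 ng group took Ly86 past the threshold (-1.75, limma adjusted p = 0.0411), as did fitting the 12 arrays jointly (0.0382). Pou2af1 differed by 0.25 (-0.32 to 0.82) and Cd79b by -0.01 (-1.32 to 1.3), and the intervals ran from -3.76 to 0.07 for Cd79a and from -1.79 to 0.34 for Ighm.

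The spread between arrays at 0.3 ng differed between the members. Pou2af1 and Ms4a1 had SDs of log2 signals of 0.16 and 0.14, below the median of 0.69 over all tested probe sets. Cd79b had 1.0 and Cd79a 1.51, with 18.3-fold between the highest and the lowest Cd79a array. At 10 ng the same genes had 0.16 (Pou2af1), 0.27 (Ms4a1), 0.25 (Cd79b) and 0.47 (Cd79a).

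Other immunoglobulin chains were looked up by name to set beside Ighm, a choice made after the Ighm values were known. In all, 57 probe sets named a heavy, kappa, lambda or J chain gene, and of 41 tested, 28 were higher and 7 lower in kidney than in the reference at 10 ng (22.9% and 37.2% of all tested probe sets). The 13 tested heavy chain probe sets, Ighm included, had 12 calls higher in kidney and 0 lower. All 13 had reference means at 10 ng of 49.0 or less, under the filter level of 65.4. The filter thus kept mainly heavy chain probe sets that were bright in kidney, so this count follows largely from the filter. These calls also enter the 28. Igha, the heavy chain of IgA, had kidney means of 4403, 9266 and 10159 on its 3 probe sets and reference means at 10 ng of 19.7 to 49.0. Of the 23 heavy chain probe sets, 15 were above background on all kidney arrays and 1 on all reference arrays at 10 ng.

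The kappa light chain probe sets differed among themselves. The 3 probe sets that name Igkc with several variable genes measured 11560, 10854 and 11763 in kidney and 17276, 15835 and 17666 in the reference at 10 ng (log2 fold changes -0.58, -0.54 and -0.59, all called). These 3 calls were lost with quantile normalization (limma adjusted p between 0.0564 and 0.0789) and with centred arrays (between 0.0615 and 0.126). The probe set 1452557_a_at, which names Igk, measured 11097 against 18087 (-0.70) and kept its call with quantile normalization (limma adjusted p = 0.0152) and with centred arrays (0.0494). Another probe set that names Igk, 1425738_at, ran the other way. It measured 1532 in kidney against 432 (log2 fold change 1.83, limma adjusted p = 0.000271) and kept its call with both scalings. On 11 of the 29 kappa probe sets all 9 reference arrays lay below background. Igk-V21 was at least 44.7-fold and Igkv14-111 at least 21.1-fold higher in kidney. Igkv6-15 was higher in the reference, with 1959 against 969 in kidney, and Igkv8-30 measured 7968 against 7861 and was not called. Of 29 kappa probe sets, 26 were above background on all kidney arrays and 13 on all reference arrays at 10 ng, and 24 were tested, with 14 higher and 5 lower in kidney. The J chain gene Jchain, whose product joins IgM or IgA units, measured 9381 in kidney and 13224 in the reference at 10 ng (log2 fold change -0.50, limma adjusted p = 0.0108), a call that centring the arrays removed (-0.25, 0.124).

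**Figure D4:**
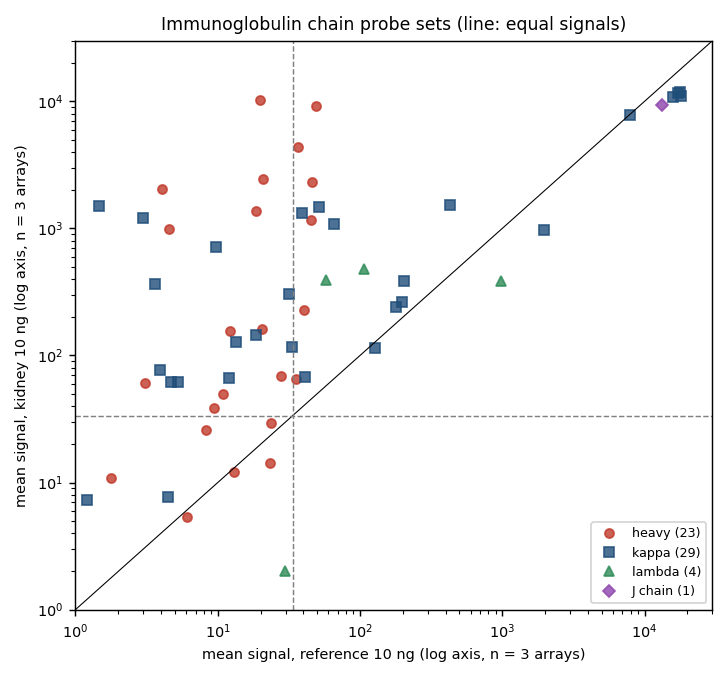
Mean signal in kidney against mean signal in the reference at 10 ng (log axes, array units, n = 3 arrays each) for the 57 immunoglobulin chain probe sets, with the line of equal signals and the background level of 33.65 dashed on both axes. The 13 tested heavy chain probe sets stand above the line at reference means of 49.0 or less, while the probe sets naming Igkc and the J chain lie at high signal just below the line.

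Other B lineage genes are read against all tested genes, of which 27.1% were called higher and 35.6% lower in kidney at equal input, an excess of lower calls that is not particular to any list. Over 6 lists, 86 genes were tested beside the 9 members, and limma called 16 higher and 42 lower in kidney than in the reference at 10 ng, with a median log2 fold change of -0.63 beside -0.19 over all tested genes. Between reference inputs 0 of the 86 were called by limma (8 at 3 ng and 14 at 0.3 ng at an unadjusted p under 0.05). Of 25 tested genes of B cell receptor signalling, 4 were higher and 13 lower, beside the same 27.1% and 35.6%. With quantile normalization or with centred arrays, 4 were higher and 10 lower. The adaptor gene Pik3ap1, which links the receptor to PI3 kinase, measured 176 ± 18.8 in kidney against 856 ± 55.4 (log2 fold change -2.26), Prkcb -2.42, Btk, the kinase lost in agammaglobulinaemia, -2.51 (-2.09 at the background level), and Pik3cd was at least 4.25-fold lower.

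Of 20 tested B lineage transcription factor genes, 3 were higher and 13 lower in kidney (27.1% and 35.6% of all tested genes). The counts were 3 and 12 with quantile normalization, and 4 and 10 with centred arrays. Irf4, which drives plasma cell formation, measured 723 ± 94.96 in kidney against 9192 ± 558 (-3.67), Myb 101.1 ± 41.1 against 6880 ± 1160.2 (-6.09), Runx1 -3.82 and Lef1 -2.92. Irf8, named after its value was seen, went the other way, with 295 ± 39.7 in kidney against 60.2 ± 19.5 (2.25). These are regulators of other blood lineages as well. Of 11 tested immunoglobulin and plasma cell genes, 3 were higher and 6 lower, again beside 27.1% and 35.6% of all tested genes. Mzb1, a chaperone of antibody assembly, measured 232 ± 53.7 in kidney against 3979 ± 89.8 (-4.11). Higher in kidney were Igha (7.46), Ighg3 (2.51) and Pigr (7.87, 7.16 at the background level), the epithelial receptor that carries IgA and IgM across mucosa.

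Among 9 tested surface and homing genes of mature B cells, 2 were higher and 5 lower in kidney, beside 27.1% and 35.6% of all tested genes. Tnfrsf13c, the BAFF receptor gene, was at least 6.47-fold, Tnfrsf13b, the TACI gene, at least 3.81-fold and Ltb at least 2.58-fold lower, and Cd74, the class II invariant chain, was higher (2.69). Ltb measured 55.2, 52.2 and 227.9 in the reference at 10 ng and was below background on every reference array at 3 ng. In the reference at 0.3 ng, Tnfrsf13b had a mean of 20.4, beside 16.7 in kidney, and Tnfrsf13c spread from 4.0 to 344.2. Among 11 tested genes of early B cells, 4 were higher and 1 lower, beside the same shares. With quantile normalization or with centred arrays, 6 were higher and 1 lower. The 4 were Mme (at least 48.4-fold), Il7r (at least 7.10-fold), Cd93 (3.49) and Kit (at least 3.54-fold). Mme is also a brush border enzyme of the kidney tubule, and Kit and Cd93 are expressed outside the B lineage. For the partners of Ly86, 10 genes of RP105 and toll-like receptors were tested. Here limma called 0 higher and 4 lower in kidney (6 at an unadjusted p under 0.05), again beside 27.1% and 35.6% of all tested genes. The log2 fold changes were -2.12 for Tlr4, -1.22 for Ly96, -0.74 for Myd88 and -0.54 for Cd14. Myd88 and Cd14 lost their calls with centred arrays (adjusted p = 0.0672 and 0.0831), and Myd88 also with quantile normalization (0.0521).

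**Figure D5:**
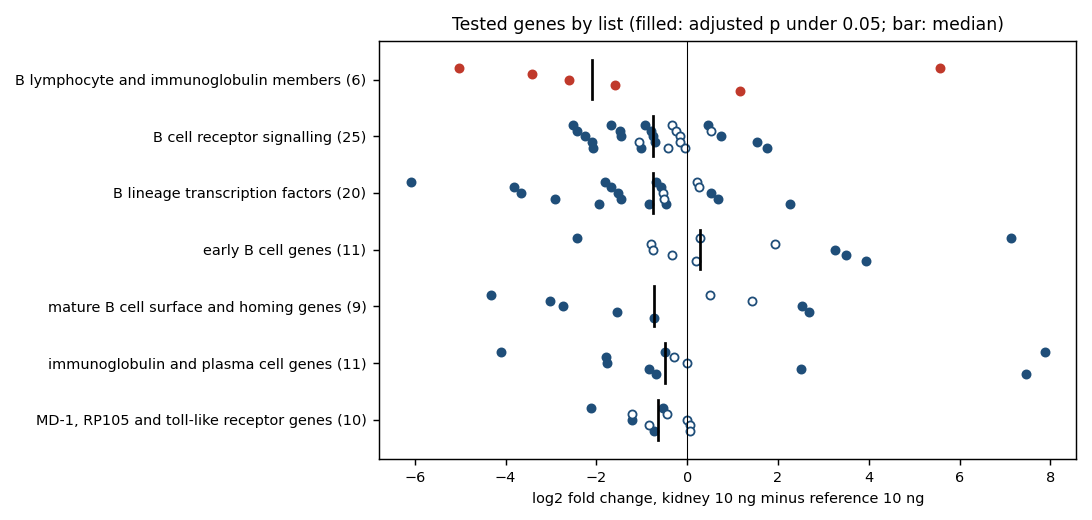
Log2 fold change of kidney minus reference at 10 ng for the tested genes of each list (points; filled where the limma adjusted p is under 0.05), with each list's median as a bar. The 6 tested members run from -5.02 for Ms4a1 to 5.58 for Ighm.

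Marker lists of other blood cells went in different directions. Of 12 general leukocyte markers, 1 was higher and 10 lower in kidney than in the reference at 10 ng (27.1% and 35.6% of all tested genes). With centred arrays, 1 was higher and 8 lower. The summed signal of the 12 was 18855 to 19737 per kidney array and 34035 to 37594 per reference array. Of 12 T lymphocyte markers with a probe set, 10 were tested, with 3 higher and 6 lower beside the same shares, and sums of 7484 to 7862 against 13450 to 14355. Of 5 erythroid markers with a probe set, all 3 tested were higher in kidney, beside the same 27.1% of all tested genes. These 3 passed the filter through kidney alone, their reference means being under its level of 65.4, so a lower call was not possible. The sums over the 5 were 9942 to 10598 against 55.1 to 111, with Hbb-b2 alone at 8634 to 8853 per kidney array. Ighm was high on the kidney arrays together with these red cell markers, and the part of blood in the tissue was not tested.

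Genes with the pattern most like each tested member over the 12 arrays were sought among 4173 other tested genes whose group means spanned at least 4-fold. The closest were Slc2a2 (Pearson r = 0.995) and Ptger3 (0.992) for Ighm, Oat (0.977) and Paip1 (0.972) for Ly86, Ccna2 (0.995) and Spinkl (0.995) for Pou2af1, Cep295 (0.989) and Aurkb (0.989) for Ms4a1, Cep41 (0.990) and Eno3 (0.981) for Cd79b, and Dnajc27 (0.950) and Gins3 (0.931) for Cd79a. The 12 arrays form a kidney and a reference cluster, so a high r over all arrays can come from that difference alone. Cd79a was as low at 0.3 ng as in kidney, and so was Dnajc27, with means of 23.7 in kidney and 56.9, 85.2 and 19.7 in the reference at 10, 3 and 0.3 ng.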

How the data were processed

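The authors deposited 1 linear intensity for each probe set and array, with a 2% trimmed mean of 500 on every array as computed from the values; the software and summary method behind them were not stated in the labels. Here log2(signal + 3.9) was analysed, 3.9 being the 10th percentile of positive signals. After removal of 64 controls from 45101 probe sets, 27022 were tested, those whose highest group mean (of log2 signals) exceeded 65.4, the 40th percentile. Where several probe sets named one gene and no other, the brightest by mean log2 over 12 arrays stood for it. Symbols came from the platform annotation.

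limma 3.58.1 (R 4.3.3) fitted each of 5 comparisons to its own 6 arrays, without covariates, two-sided, adjusting by Benjamini-Hochberg over the tested probe sets at 0.05. The fits assume equal spread in both groups, although the spread was larger at 0.3 ng. "At least" folds divide the brighter group's geometric mean by background when the dimmer group is below background on all its arrays. The procedure was tested on simulated data. Every member is named; from each other list, up to 4 called genes with the largest change at equal input; and for likeness, 2 genes per member. Members and lists were chosen with earlier results of these data known. The number of arrays limits the precision. Arrays with the same replicate number did not deviate together (correlations of -0.06 to 0.02), so the numbers pair nothing. Alternatives covered scaling, pseudocount, filter, joint fitting, variance model, replicate block, probe set choice and each array left out.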

Additional observations from a re-analysis of the deposited data

How the results depend on the processing

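Among the single-gene results and alternatives run, 447 kept direction and side of the threshold. Another 4 lost a call, 2 gained one and 11 changed sign. None of the sign changes counted here was in a kidney comparison. The uncalled Cd79a difference between kidney and the reference at 0.3 ng nevertheless has no settled sign. It was 0.25 in the main fit and -0.17 at the background level. The 4 losses were Cd79a at equal input with a joint fit and Cd79b against 0.3 ng without each kidney array, and both gains were Ly86 at 0.3 against 10 ng. Members called at 0.3 against 10 ng went from 0 to 1 with a joint fit, and from 0 to 1 across arrays left out. Over all probe sets, taking the median over a gene's probe sets tests fewer features and gave 7249, 6805 and 4646 calls for kidney against 10, 3 and 0.3 ng, where the main counts were 16246, 15308 and 9414; the last ran from 5516 to 10245 with 1 array left out. Reference 3 against 10 ng went from 0 calls to 1 with centred arrays and 5 with a joint fit. Reference 0.3 against 10 ng went from 215 calls to 72 with quantile normalization, 79 centred, 76 without a filter, 127 with a filter on the overall mean, 1571 with a joint fit, 86 with trend and robust variances, 42 with the gene median, and 0 to 595 with 1 array left out; apart from the gene median, the cause was not tested. With replicate number as a block it was 0 (3483 at an unadjusted p under 0.05), kidney against 10, 3 and 0.3 ng gave 14650, 13547 and 6660 calls, and no count of members changed. Centring turned the calls for kidney against 3 ng from 5886 higher and 9422 lower to 7550 and 6546.

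The sign changes counted were all of uncalled differences. At 3 against 10 ng, the gene median gave 0.22 for Ms4a1 and 0.34 for Ighm, centring gave -0.060 for Pou2af1, and leaving out 1 array gave -0.054 to 0.10 for Pou2af1 and -0.25 to 0.13 for Ly86. At 0.3 against 10 ng, Cd79b was 0.076 with quantile normalization, 0.42 centred and -0.52 to 0.48 with 1 array left out, and Ighm was 0.43 with the gene median. Signals near background limit Cd79a, Cd22, Blk and Pax5.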
